A study of Equus caballus with 45 samples.

Results

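The transcripts of 8 genes that make, store, present or respond to transforming growth factor beta (TGF-β) were followed across equine cells of 4 types. The genes were the ligands TGFB1, TGFB2 and TGFB3, the latent-complex genes LTBP1, LTBP2 and LRRC32, the activator THBS1 and the target TGFBI. They were taken by symbol from both deposited count tables and are 8 of the 20881 genes listed there. The set was chosen by the measured change of LRRC32, which moved in opposite directions with the same kind of medium in synoviocytes and chondrocytes, so that pattern is given below as a description and carries no test.

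TGF-β is secreted in a latent form. Each ligand stays wrapped in its own propeptide, and this small complex is joined either to a latent TGF-β binding protein such as LTBP1, which anchors it in the extracellular matrix, or to LRRC32 (also called GARP), which holds it on the surface of regulatory T cells and platelets. Integrins, proteases and thrombospondin-1 (THBS1) can free the ligand, which then signals through its receptors and SMAD proteins. TGFBI encodes a secreted matrix protein that TGF-β induces in many cells. LTBP2 is a matrix relative of LTBP1 that does not bind the latent ligand itself. In joints, TGF-β supports cartilage matrix and is also associated with synovial fibrosis.

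The study asked how mesenchymal stromal cells (MSC), activated through the nucleic acid sensors TLR3 or STING, and the medium they conditioned act on cells of the inflamed joint. RNA was sequenced from 45 libraries. The 12 MSC libraries came from equine bone marrow MSC of 3 donor horses (donors 99, 92 and PC) that were left untreated or given the TLR3 agonist polyinosinic:polycytidylic acid (poly I:C), the STING agonist 2′3′-cGAMP or CpG, a label the methods of the study do not describe, with 1 library per donor and condition. Agonist exposure lasted 2 h, at 10 ng/mL by the labels and 10 µg/mL by the methods, and the cells were washed and cultured for 24 h more. The 33 joint cell libraries, 11 per cell type, came from synoviocytes and chondrocytes of the femoropatellar joint of 1 horse and from macrophages grown out of blood monocytes of 1 horse. Each type had 1 library with no addition, 1 with the inflammatory cytokines IL-1β and TNF-α alone, and 3 each with cytokines plus medium from untreated MSC (resting MSC-CM), TLR3-activated MSC (TLR-MSC-CM) or STING-activated MSC (STING-MSC-CM). The methods give cytokines at 20 ng/mL and the labels of the macrophages 10 ng/mL. Joint cells given a medium were cultured with it for 24 h, washed and cultured for 24 h more before lysis. The abstract and the methods of the study differ on whether the cytokines were washed off before the medium. The 3 libraries of a medium carry the names ORC, AG1 and PC, which the labels give as a cell line. Since the methods describe joint cells of 1 horse per type and media of 3 MSC donors, the name is read here as the MSC donor of the medium, but neither source says so. Only PC recurs among the MSC libraries, and the single libraries without medium also carry ORC or PC. The names of the MSC and joint cell libraries together are more than the 3 MSC donor horses of the methods, a conflict that the sources leave unresolved. A difference between media and one between batches of joint cells therefore cannot be told apart, and every p-value among joint cells measures only the spread between these libraries.

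Levels are given in CPM, a gene's deposited count per 1000000 counts of its library. Totals ran from 23525704 to 54103873 counts, and 3 counts, taken as the detection floor, equal 0.0554 to 0.128 CPM. CPM takes no account of transcript length, so each gene is compared with itself only, and levels in MSC and joint cells, which are in separate tables, are set side by side without a test. The 13 macrophage markers listed summed to 13270 to 17015 CPM in the macrophages and to at most 40.7 CPM in synoviocytes and chondrocytes, where CSF1R, the receptor of macrophage colony-stimulating factor, had at most 6 counts. In MSC they summed to 9.66 to 333 CPM (median 19.8 CPM), with CSF1R at most 11 counts. Chondrocytes held ACAN, the main cartilage proteoglycan (6.12 to 101 CPM), but COL2A1, the cartilage collagen that defines the differentiated cell, had at most 12 counts and COL9A1 was at or under the floor in every library. The 11 chondrocyte markers together summed to 160 to 768 CPM in chondrocytes, 147 to 339 CPM in synoviocytes and 223 to 876 CPM in MSC. As a whole the list thus did not set the chondrocytes apart from either type. The 9 listed fibroblast markers summed to 48169 to 91030 CPM in chondrocytes and 86650 to 116068 CPM in synoviocytes. The macrophage cultures held T cell transcripts, with the 6 T cell markers at 241 to 455 CPM and all 6 above the floor, against at most 1.41 CPM in the other types. The 6 listed platelet markers summed to 15.6 to 58.9 CPM in macrophages and to at most 19.9 CPM in the other types. By root mean square log2 distance from the median of their cell type, some libraries with a medium stood apart. In synoviocytes these were resting MSC-CM (0.235) and TLR-MSC-CM (0.189) of donor ORC, the others with a medium being at most 0.129. In chondrocytes they were all media of donor ORC (0.352 to 0.392, the others at most 0.189). In macrophages they were TLR-MSC-CM (0.349) and resting MSC-CM (0.275) of donor AG1, the others being at most 0.203.

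**Figure D1:**
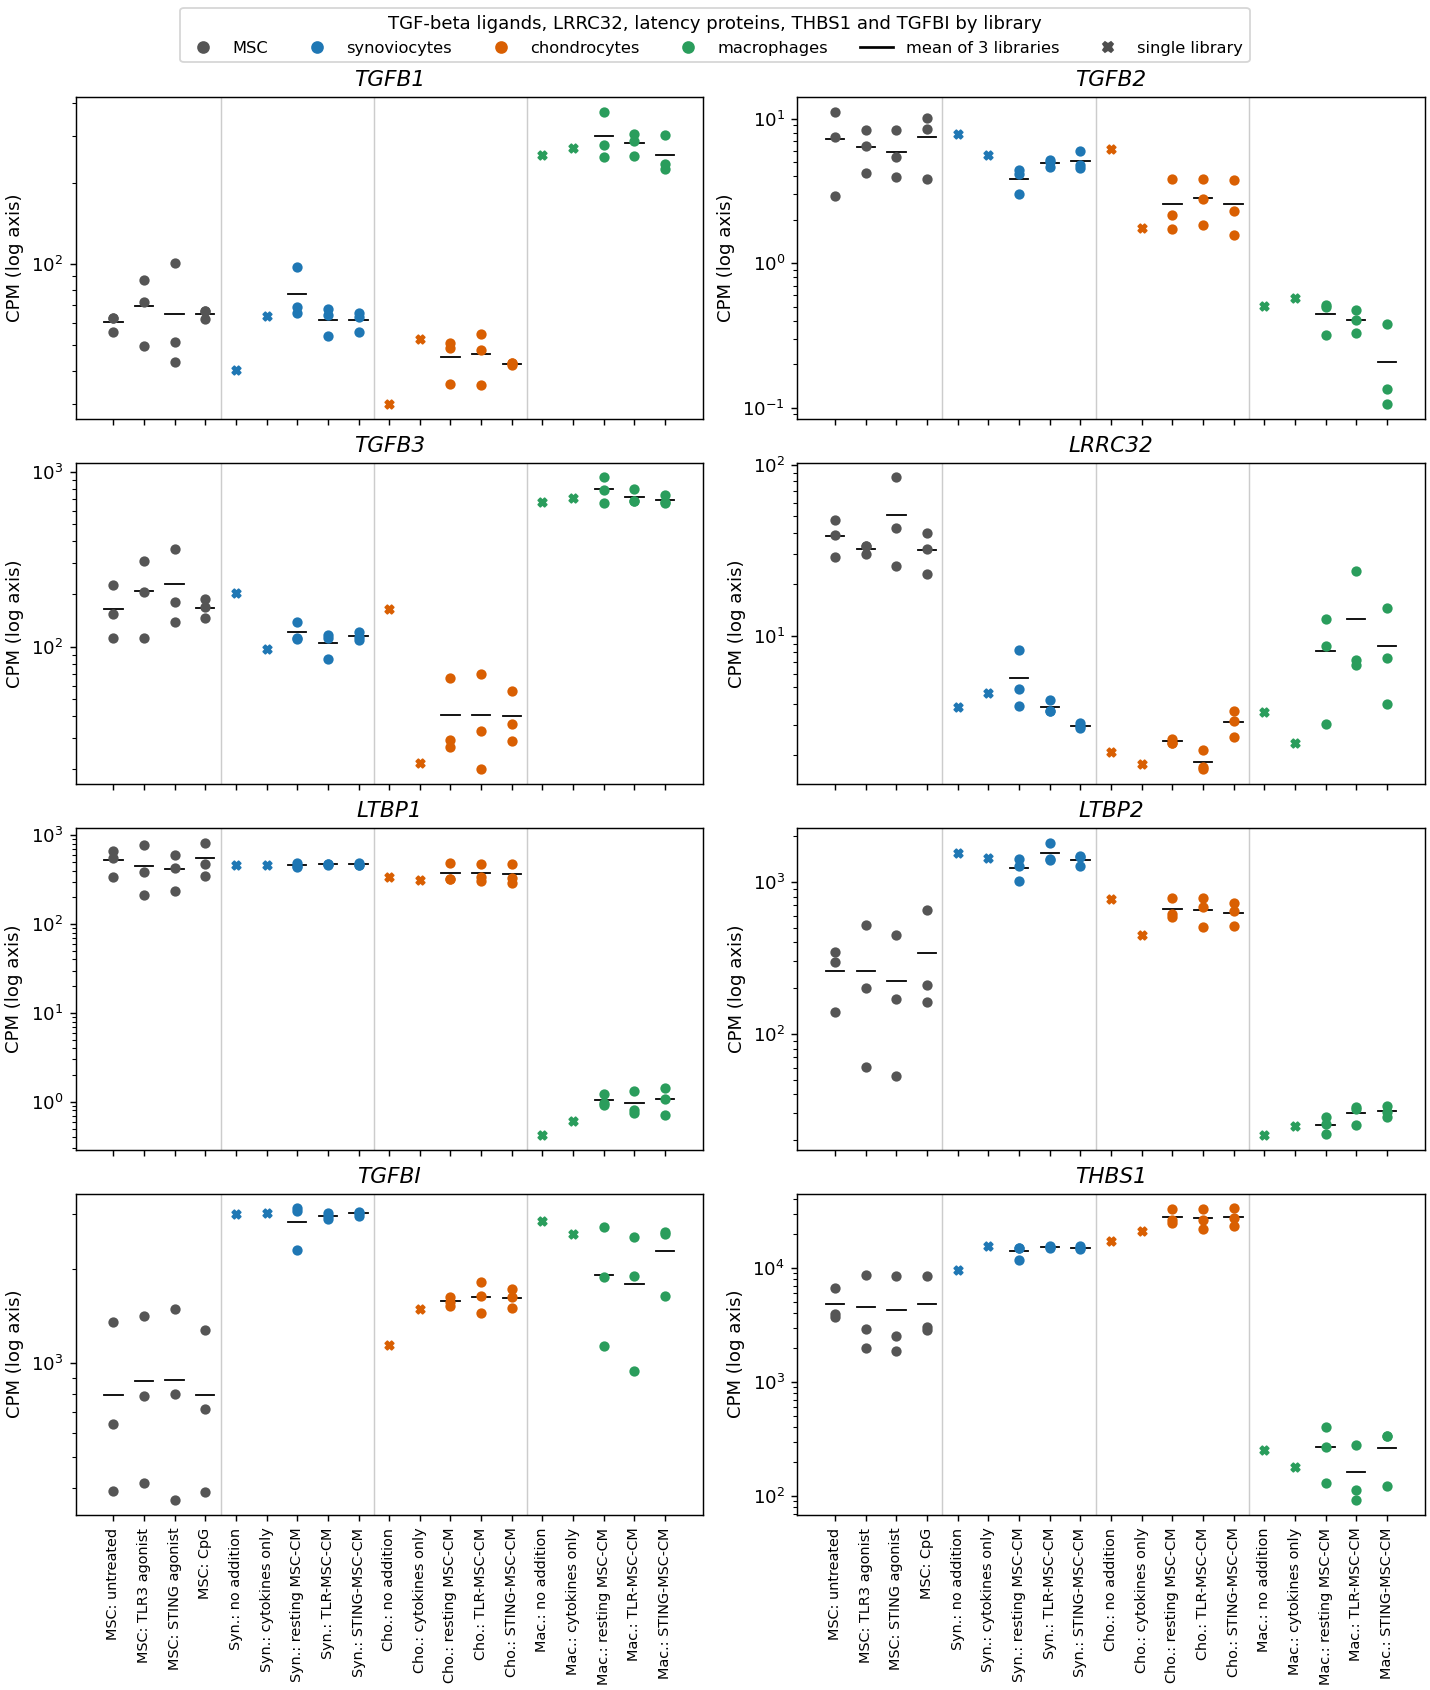
CPM (log axis) of the 8 genes in each condition of MSC, synoviocytes, chondrocytes and macrophages. Circles are single libraries, lines the mean of 3 libraries and crosses conditions with 1 library. LTBP1 lay at 0.424 to 1.43 CPM in macrophages and at 211 CPM or more in every other library.

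TGFB1, the ligand best known for damping immune cells, stood highest in macrophages. With resting MSC-CM it measured 279 (ORC), 370.5 (AG1) and 251 CPM (PC) in macrophages, 97.4, 65.9 and 69.2 CPM in synoviocytes and 35.5, 50.5 and 48.7 CPM in chondrocytes. The 3 ranges did not overlap. TGFB1 was 3.81-fold higher in macrophages than in synoviocytes (log2 fold change 1.93 ± 0.19 SE, adjusted p = 4.89e-06 by edgeR's quasi-likelihood test, with p-values adjusted over all genes after Benjamini and Hochberg) and 6.61-fold higher than in chondrocytes (2.72 ± 0.20, adjusted p = 4.03e-07). It was 1.73-fold lower in chondrocytes than in synoviocytes (-0.79 ± 0.19, adjusted p = 0.0140), a call that was lost without the synoviocytes given resting MSC-CM of donor ORC (-0.62, adjusted p = 0.0597). In the MSC table TGFB1 lay between 43.2 and 101 CPM, within reach of the synoviocytes. These are bulk cultures, in which fewer cells of a type and less RNA per cell cannot be told apart.

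TGFB2, the least abundant of the 3 ligands by counts, was near the floor in macrophages. Across all 11 macrophage libraries it measured 0.106 to 0.572 CPM (3 to 20 counts), below every library of the other types. With resting MSC-CM it stood at 3.85 ± 0.755 CPM (SD, n = 3) in synoviocytes, 2.57 ± 1.13 CPM in chondrocytes and 0.441 ± 0.106 CPM in macrophages. It was 8.91-fold lower in macrophages than in synoviocytes (log2 -3.16 ± 0.38, adjusted p = 2.54e-05) and 5.87-fold lower than in chondrocytes (-2.55 ± 0.38, adjusted p = 1.32e-04). In MSC it followed the donor, with 8.31 to 11.1 CPM in donor 99, 5.44 to 8.48 CPM in donor PC and 2.92 to 4.18 CPM in donor 92. MSC libraries of the same donor deviated together over genes in general (median r = 0.83 over 13209 genes, CpG left out).

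TGFB3, a ligand tied to cartilage formation, was highest in macrophages. It measured 789 (ORC), 930.4 (AG1) and 662 CPM (PC) in macrophages with resting MSC-CM, 138, 112 and 111 CPM in synoviocytes, and 65.9, 29.4 and 26.6 CPM in chondrocytes. Macrophages therefore held the highest TGFB1 and TGFB3 and the lowest TGFB2 of the 3 joint cell types. TGFB3 was 6.46-fold higher in macrophages than in synoviocytes (log2 2.69 ± 0.32, adjusted p = 2.09e-05), 19.3-fold higher than in chondrocytes (4.27 ± 0.34, adjusted p = 9.39e-07) and 2.98-fold lower in chondrocytes than in synoviocytes (-1.58 ± 0.31, adjusted p = 0.00531). With donors PC and AG1 alone this last difference was -2.04 (adjusted p = 3.87e-05). MSC lay between, at 113 to 362 CPM, overlapping the synoviocytes, whose highest value was 203 CPM.

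LTBP1 and LTBP2 separated the macrophages from the 3 adherent mesenchymal types. LTBP1, the matrix anchor of the latent ligands, measured 458 ± 25.5 CPM in synoviocytes and 378 ± 95.7 CPM in chondrocytes with resting MSC-CM and 1.04 ± 0.151 CPM in macrophages. Its 11 macrophage libraries held 11 to 52 counts each. The difference was 444-fold against synoviocytes (log2 -8.80 ± 0.25, adjusted p = 5.43e-10) and 364-fold against chondrocytes (-8.51 ± 0.25, adjusted p = 5.72e-10). LTBP2 fell in 3 steps, from 1016 (ORC), 1407 (AG1) and 1280.1 CPM (PC) in synoviocytes to 787, 588 and 612 CPM in chondrocytes and 22.1, 25.4 and 28.3 CPM in macrophages. It was 1.88-fold lower in chondrocytes than in synoviocytes (-0.91 ± 0.18, adjusted p = 0.00513, and -1.21 with donors PC and AG1 alone), 49.9-fold lower in macrophages than in synoviocytes (-5.64 ± 0.21, adjusted p = 3.70e-09) and 26.5-fold lower than in chondrocytes (-4.73 ± 0.21, adjusted p = 8.86e-09). In MSC, LTBP2 ran from 52.4 to 657 CPM, and donor 92 held the highest value in every condition.

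LRRC32, the surface anchor of the latent ligand, overlapped between neighbouring cell types at every step of its order of levels. By medians MSC stood first (23.1 to 84.5 CPM), then macrophages (2.37 to 23.9 CPM), synoviocytes (2.88 to 8.23 CPM) and chondrocytes (1.66 to 3.64 CPM), and each type overlapped its neighbour. With resting MSC-CM it measured 8.23 (ORC), 3.92 (AG1) and 4.89 CPM (PC) in synoviocytes, 2.50, 2.38 and 2.38 CPM in chondrocytes and 3.06, 12.6 and 8.74 CPM in macrophages. Its level in macrophages was 3.35-fold that in chondrocytes (log2 1.74 ± 0.44, adjusted p = 0.00443). Against synoviocytes it was lower in chondrocytes by log2 -1.23 ± 0.44, and by -0.93 with donors PC and AG1 alone. The resting libraries of these 2 types entered the pattern for which LRRC32 was chosen. The difference between these 2 types is therefore a description with no test, and the macrophage p-value shares the chondrocyte libraries.

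In macrophages the LRRC32 level went with the name read here as the donor of the medium. Medium of donor AG1 gave 12.6, 23.9 and 14.6 CPM (resting, TLR and STING), donor PC 8.74, 7.22 and 7.46 CPM, and donor ORC 3.06, 6.78 and 4.02 CPM. Donor AG1 was highest and donor ORC lowest with every medium. The library with the highest LRRC32, TLR-MSC-CM of donor AG1, also had the highest sum of the 6 T cell markers (455 CPM, against 241 to 307 CPM in the other 10 libraries) and the highest FOXP3, the transcription factor of regulatory T cells (25.5 CPM). The other libraries did not follow this: the second highest LRRC32, STING-MSC-CM of donor AG1, had the lowest FOXP3 (5.69 CPM) and a T cell marker sum of 252 CPM, and the lowest LRRC32 with a medium, resting MSC-CM of donor ORC, had 20.4 CPM and 301 CPM. The part of T cells, platelets or other cells in the macrophage level of LRRC32 was not tested.

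THBS1, a matrix protein that can release active ligand, alone of the 8 had no overlap at any step of its order of levels. This order of the 4 cell types held over all 45 libraries. The share of all genes with such an order is not given here. Chondrocytes had 17206 to 33538 CPM, synoviocytes 9622 to 15649 CPM, MSC 1885 to 8694 CPM and macrophages 91.7 to 404 CPM. In chondrocytes this single gene took 1.72 to 3.35% of all counts. With resting MSC-CM, THBS1 was 53.7-fold lower in macrophages than in synoviocytes (log2 -5.75 ± 0.42, adjusted p = 4.87e-07) and 107-fold lower than in chondrocytes (-6.74 ± 0.44, adjusted p = 2.00e-07). The step from synoviocytes (14036 ± 1871 CPM) to chondrocytes (28184 ± 4393 CPM) measured 0.99 ± 0.35 and did not pass adjustment (adjusted p = 0.0753), although it did with DESeq2 (adjusted p = 0.0137).

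TGFBI, the target gene, was high in all 3 joint cell types. It measured 2834 ± 466 CPM in synoviocytes, 1577 ± 55.2 CPM in chondrocytes and 1916 ± 793 CPM in macrophages with resting MSC-CM, and no pair of joint cell types differed past the threshold. The smallest adjusted p was 0.0571, for chondrocytes against synoviocytes (log2 -0.86 ± 0.28), and DESeq2 put it at 0.0086. In MSC it went with the donor, at 1279 to 1487 CPM in donor 99, 640 to 797 CPM in donor 92 and 365 to 415 CPM in donor PC, with no overlap between donors and in no order of treatment. Going with the donor was general in MSC. Deviations from the group means correlated between libraries of the same donor (median r = 0.83 over 13209 genes, CpG left out).

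Counted over the 8 genes, 3 were called between chondrocytes and synoviocytes, all lower in chondrocytes, where 18.1% of all genes tested were called. Between macrophages and synoviocytes 6 were called, 2 higher and 4 lower in macrophages (71.6% of all genes). Between macrophages and chondrocytes 7 were called, 3 higher and 4 lower (71.5% of all genes). LRRC32 is among these 7, and its resting chondrocyte libraries also entered the pattern it was chosen for. The median log2 fold change of the 8 was -0.83, -1.87 and -1.14 in these 3 comparisons, beside 0.00, 0.04 and 0.04 over all 15599 genes. The 3 comparisons share libraries in pairs.

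**Figure D2:**
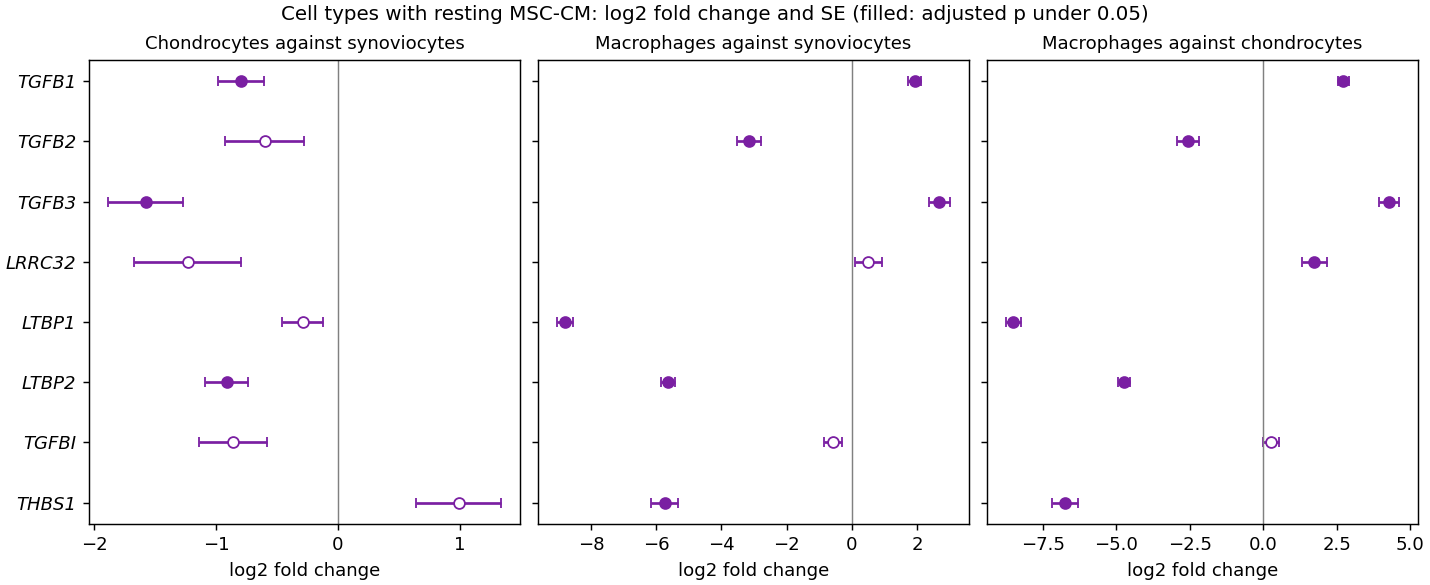
Log2 fold change (± SE) of the 8 genes between joint cell types with resting MSC-CM, from edgeR's fit of 9 libraries. Filled points have an adjusted p under 0.05. The LTBP1 points of both macrophage comparisons lie beyond -8, and TGFB1, TGFB3 and LRRC32 lie to the right of 0 in both, LRRC32 open against synoviocytes.

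The next question was whether activation changed these genes in the MSC themselves. None of the 8 was called in any MSC comparison, nor was any gene of the table (0% of 14872 genes, or of 15099 for CpG). The 3 MSC comparisons against untreated cells share the untreated libraries. The share of all genes at an unadjusted p under 0.05 was 1.15% for the TLR3 agonist, 2.10% for the STING agonist, 0.242% for STING against TLR3 and 0.305% for CpG, with none of the 8 among them. DESeq2 called 52, 95 and 1 genes in the first 3 of these and none of the 8. TGFB3 measured 155, 113 and 225 CPM in untreated donors 99, 92 and PC, 205, 113 and 309.8 CPM with the TLR3 agonist and 181, 138 and 362 CPM with the STING agonist. It was thus above its untreated level with the STING agonist in all 3 donors. With the MSC donor as a block, TGFB3 stood 0.39 higher on the log2 scale with the STING agonist (unadjusted p = 0.0322) and LTBP2 0.68 lower (log2 -0.68, unadjusted p = 0.0484). In that fit 9.48% of all genes were under 0.05 and neither passed adjustment. LTBP2 measured 140.0, 346 and 295 CPM in untreated donors 99, 92 and PC and 52.4, 448 and 169.8 CPM with the STING agonist, so donor 92 moved up while the other 2 moved down.

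LRRC32 in MSC was 38.6, 29.0 and 47.4 CPM untreated in donors 99, 92 and PC. It measured 30.2, 33.5 and 33.4 CPM with the TLR3 agonist, 84.5, 25.7 and 42.8 CPM with the STING agonist and 39.7, 23.1 and 32.4 CPM with CpG. Donor 99 with the STING agonist was the high value, and the other 2 donors were below their untreated levels.

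In synoviocytes the medium of activated MSC went with lower LRRC32. It measured 8.23 (ORC), 3.92 (AG1) and 4.89 CPM (PC) with resting MSC-CM, 4.24, 3.63 and 3.64 CPM with TLR-MSC-CM and 2.88, 2.97 and 3.08 CPM with STING-MSC-CM, from 71 to 224 counts a library over all 11 synoviocyte libraries. Each donor's value was lower with either activated medium than with the resting one, and lowest with STING-MSC-CM. On the log2 scale the fitted difference was -0.56 ± 0.21 (SE) for TLR-MSC-CM and -0.92 ± 0.22 for STING-MSC-CM. The 3 STING libraries lay below all 3 resting libraries, and the share of all genes apart in this way is not given here. The resting library of donor ORC carried much of the size, and without it the differences were -0.22 and -0.59. That library also had the highest macrophage marker sum among synoviocytes (19.8 CPM, against 12.9 to 14.9 CPM in the other 10), with CSF1R at most 2 counts in every synoviocyte library. The part of other cells in this difference was not tested.

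In chondrocytes LRRC32 was lower with TLR-MSC-CM and higher with STING-MSC-CM. It measured 2.50 (ORC), 2.38 (AG1) and 2.38 CPM (PC) with resting MSC-CM, 1.66, 2.15 and 1.72 CPM with TLR-MSC-CM and 3.64, 3.17 and 2.56 CPM with STING-MSC-CM, from 54 to 133 counts a library over all 11 chondrocyte libraries. The 3 media did not overlap, but the highest resting library (2.50 CPM) and the lowest STING library (2.56 CPM) lay close. The smallest changes by donor were -0.15 for TLR-MSC-CM (AG1) and 0.11 for STING-MSC-CM (PC). Between the single chondrocyte libraries without medium, a difference of -0.22 was within counting error. The share of all genes with 3 media apart is not given here. The fitted log2 difference from resting MSC-CM was -0.39 ± 0.21 for TLR-MSC-CM and 0.35 ± 0.21 for STING-MSC-CM, and 0.73 ± 0.21 between the STING and TLR media. Without the STING library of donor ORC the second value was 0.20. The opposite directions thus concern STING-MSC-CM, with which every donor's medium gave a lower level in synoviocytes (by -0.40 to -1.51) and a higher level in chondrocytes (by 0.11 to 0.54). The difference of the 2 changes was 1.28 ± 0.31, and 0.81 with the media of donors PC and AG1 alone. For TLR-MSC-CM the level was lower in both cell types with every donor's medium, and the difference of the 2 changes was 0.18 ± 0.31. LRRC32 was chosen for this pattern, and its changes share the resting libraries.

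**Figure D3:**
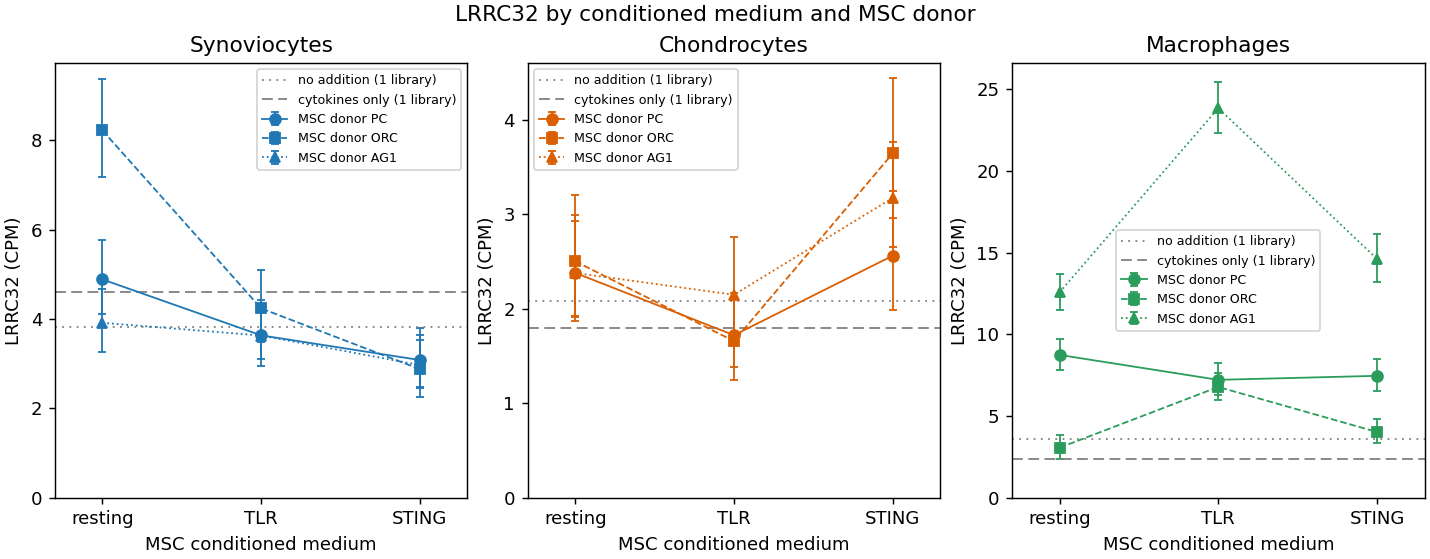
LRRC32 in CPM by conditioned medium in synoviocytes, chondrocytes and macrophages. Lines join libraries with medium of the same MSC donor, bars are 95% Poisson intervals (counting error only) and horizontal lines the single libraries without medium. All 3 lines end lowest at STING-MSC-CM in synoviocytes and highest there in chondrocytes.

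The other 7 genes changed little with the media in synoviocytes. None was called, as was no gene of the table (0% of 14584), and 2 of the 7 had an unadjusted p under 0.05 with TLR-MSC-CM (10.0% of all genes) and 2 with STING-MSC-CM (7.60%), against none between the 2 activated media (2.02%). Both comparisons share the resting libraries. TGFB1 measured 97.4 (ORC), 65.9 (AG1) and 69.2 CPM (PC) with resting MSC-CM, 53.7, 64.5 and 67.9 CPM with TLR-MSC-CM and 55.9, 63.4 and 65.6 CPM with STING-MSC-CM. It was lower by log2 -0.31 ± 0.12 (unadjusted p = 0.0245, adjusted p = 0.494) and -0.33 ± 0.12 (unadjusted p = 0.0187, adjusted p = 0.634), from edgeR's quasi-likelihood test, and with donors PC and AG1 alone by -0.04 and -0.09. The fall was largest with the medium of donor ORC. LTBP2 was 0.31 ± 0.12 higher with TLR-MSC-CM (1540 ± 237 against 1234 ± 199 CPM, unadjusted p = 0.0259, adjusted p = 0.494) and 0.05 higher with donors PC and AG1 alone. TGFB2 was 0.39 ± 0.17 higher with STING-MSC-CM (unadjusted p = 0.0365, adjusted p = 0.634) and higher with each donor's medium, at 5.96 against 4.11 CPM (ORC), 4.54 against 3.00 CPM (AG1) and 4.80 against 4.44 CPM (PC). It was 0.30 higher with donors PC and AG1 alone. At an unadjusted p under 0.05, TGFB1 and LTBP2 both dropped out for TLR-MSC-CM when either the resting or the TLR library of donor ORC was left out.

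In chondrocytes none of the 7 had a p under 0.05 with any medium, beside 0.559% (TLR against resting), 0.909% (STING against resting) and 0.811% (STING against TLR) of all 14304 genes, and none was called (0%). Their fitted log2 differences lay between -0.17 and 0.15. TGFB1 kept within 35.3 to 55.0 CPM over the 9 libraries with medium and TGFBI within 1449 to 1814 CPM. The difference between chondrocytes and synoviocytes in the change with the medium called none of the 7 and no gene (0% of 15266), with 1.93% of all genes under 0.05 for TLR-MSC-CM, 1.78% for STING-MSC-CM and none of the 7 for either.

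In macrophages none of the 8 was called and none had a p under 0.05, where 2.13% (TLR against resting), 4.76% (STING against resting) and 6.60% (STING against TLR) of 15052 genes did and 0% passed adjustment. TGFB1 measured 300.2 ± 62.4 CPM with resting MSC-CM, 282 ± 25.9 CPM with TLR-MSC-CM and 255 ± 42.6 CPM with STING-MSC-CM. TGFBI was lowest with the medium of donor AG1 in each group (1134, 947 and 1638 CPM, against 1894 to 2719 CPM for the other donors). With the MSC donor as a block more genes passed 0.05, namely 6.26%, 13.5% and 16.3% of all genes in the 3 comparisons. Of the 8, THBS1 (log2 -0.75, unadjusted p = 0.0147) and LRRC32 (0.52, unadjusted p = 0.0267) were then under 0.05 for TLR-MSC-CM, and LTBP2 (0.28, unadjusted p = 0.00942), TGFBI (0.31, unadjusted p = 0.0395) and TGFB1 (-0.24, unadjusted p = 0.0482) for STING-MSC-CM. Between the STING and TLR media these were TGFBI (0.48, unadjusted p = 0.00387), THBS1 (0.76, unadjusted p = 0.0146) and LRRC32 (-0.46, unadjusted p = 0.0444). The library with TLR-MSC-CM of donor AG1 carried much of the THBS1 values. For TLR against resting MSC-CM, THBS1 changed by -1.54 with donor AG1, -0.54 with ORC and -0.22 with PC, and LRRC32 by 0.92, 1.15 and -0.28. For STING against TLR-MSC-CM, THBS1 changed by 1.88, 0.27 and 0.12. With the block, 2.23% of all genes passed adjustment between the STING and TLR media and none of the 8 did, the nearest being TGFBI (adjusted p = 0.0870, edgeR's quasi-likelihood test).

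The cytokines alone were run in 1 library per cell type, so these differences have no replicate check, and their 95% Poisson intervals cover counting error only. TGFB3 stood at 203 CPM without addition and 97.1 CPM with cytokines in synoviocytes (log2 ratio -1.06, interval -1.13 to -0.9995) and at 165 and 21.7 CPM in chondrocytes (-2.93, interval -3.03 to -2.82). In macrophages it was 668 and 708 CPM. TGFB2 went from 7.80 to 5.62 CPM in synoviocytes (-0.47, interval -0.76 to -0.18) and from 6.21 to 1.74 CPM in chondrocytes (-1.83, interval -2.24 to -1.43). TGFB1 had the opposite sign, with 40.1 and 63.7 CPM in synoviocytes (0.67, interval 0.56 to 0.77) and 30.0 and 52.6 CPM in chondrocytes (0.81, interval 0.69 to 0.93). THBS1 was also higher with cytokines in these 2 types, at 9622 and 15649 CPM in synoviocytes and 17206 and 20994 CPM in chondrocytes, but lower in macrophages (255 and 178 CPM, -0.52, interval -0.57 to -0.46).

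For these 4 genes, in both cell types, the library without addition lay outside the range of the 9 libraries that had cytokines and a medium. TGFB3 without addition was above all of them (85.1 to 138 CPM in synoviocytes and 19.9 to 69.7 CPM in chondrocytes), as was TGFB2, and TGFB1 and THBS1 were below. TGFBI was also below in chondrocytes (1145 CPM, against 1449 to 1814 CPM) but inside the range in synoviocytes. The libraries without addition stood farthest from the median of their cell type, at 0.375 in synoviocytes and 0.551 in chondrocytes (root mean square log2 distance). The share of all genes outside the range is not given here. LRRC32 differed by less than counting error between the 2 single libraries in synoviocytes (3.82 and 4.61 CPM, log2 0.27, interval -0.09 to 0.63) and in chondrocytes (2.08 and 1.79 CPM, -0.22, interval -0.73 to 0.30). In macrophages it was 3.59 CPM without and 2.37 CPM with cytokines (-0.60, interval -1.07 to -0.12).

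**Figure D4:**
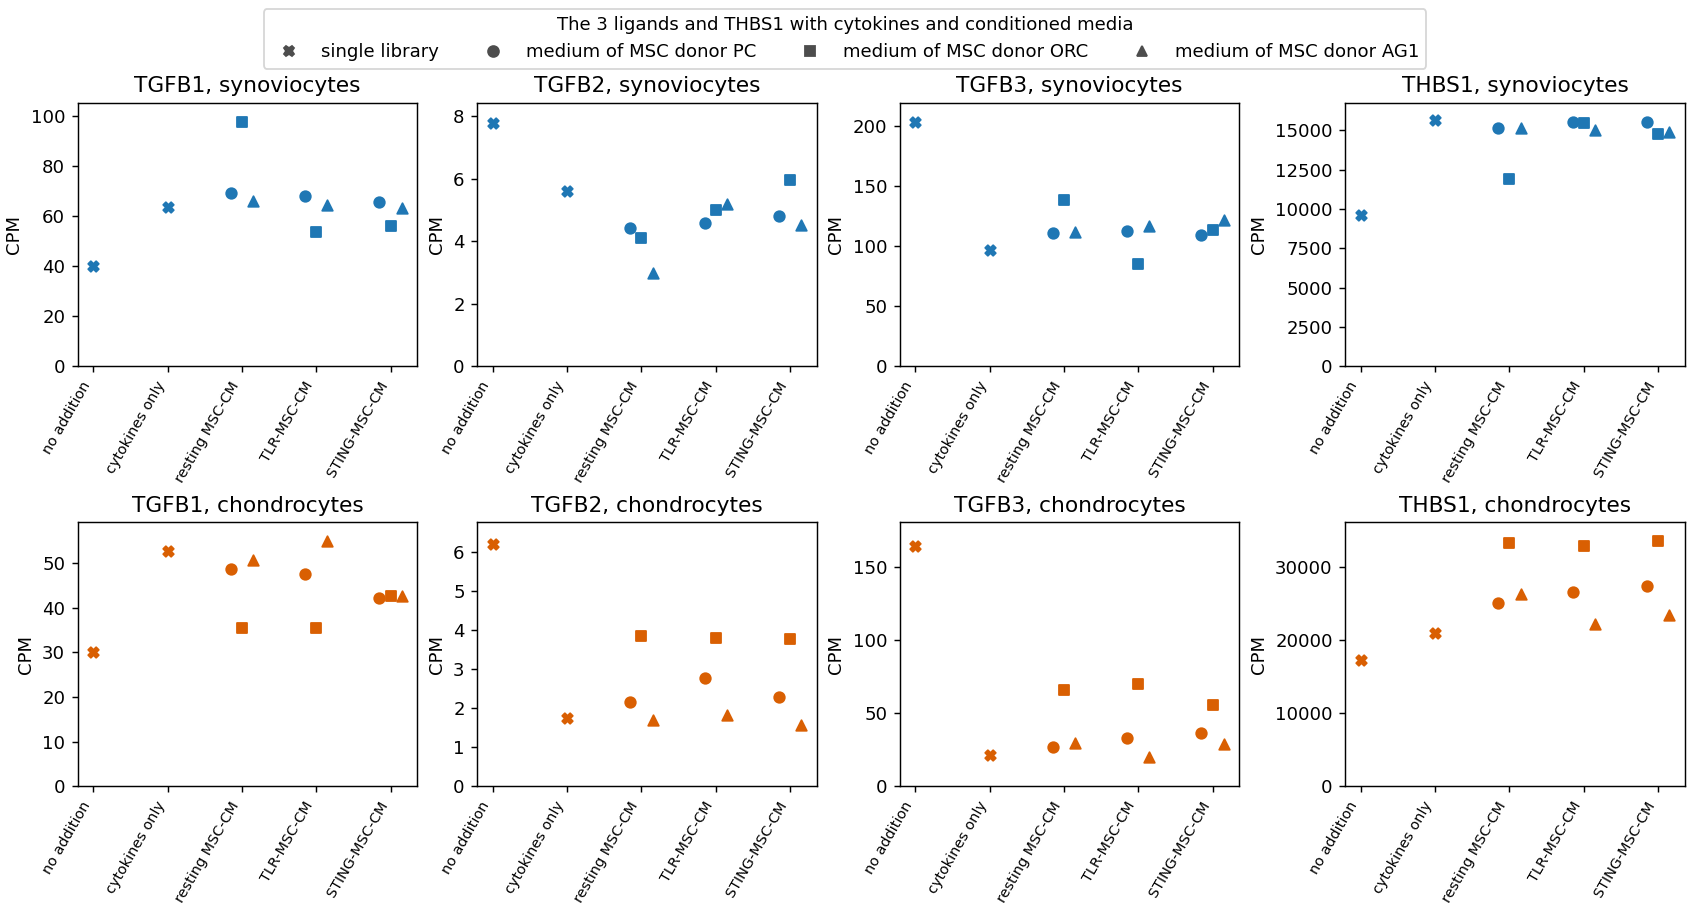
TGFB1, TGFB2, TGFB3 and THBS1 in CPM in synoviocytes and chondrocytes without addition, with cytokines alone and with cytokines plus each medium. Marker shape gives the MSC donor of the medium and colour the cell type. TGFB3 and TGFB2 are highest without addition in both cell types, and in chondrocytes the libraries with medium of donor ORC stand apart from those of donors PC and AG1 for TGFB2, TGFB3 and THBS1 but not for TGFB1.

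In chondrocytes several of these genes went with the name read as the medium donor rather than with the activation. This split was chosen after seeing the values and is a description. In the 3 libraries with medium of donor ORC, TGFB3 measured 65.9, 69.7 and 55.7 CPM (resting, TLR and STING), against 19.9 to 36.2 CPM in the 6 libraries of donors PC and AG1. TGFB2 measured 3.79 to 3.85 CPM against 1.57 to 2.77 CPM. THBS1 measured 32831 to 33538 CPM against 22192 to 27345 CPM. LTBP1 and LTBP2 were likewise higher with medium of donor ORC, LTBP1 at 473 to 488 CPM against 288 to 338 CPM. These 5 of the 8 genes did not overlap between the 2 sets of libraries, as was the case for 36.9% of all 14490 genes, against 0 of the 8 in synoviocytes (3.06% of all genes) and 1, LRRC32, in macrophages (4.21%). In the same chondrocyte libraries the 11 chondrocyte markers summed to 489 to 624 CPM with medium of donor ORC and 160 to 246 CPM with the other media, beside 768 CPM without addition and 165 CPM with cytokines alone. TGFB3 and TGFB2 with medium of donor ORC lay between their single libraries without addition and with cytokines alone, while THBS1 and LTBP1 lay above both (17206 and 20994 CPM for THBS1, 342 and 317 CPM for LTBP1). The part of cell state or culture in this split was not tested.

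Other genes of the pathway were counted in 5 lists, which hold 80 listed genes for activation and storage of the ligand, receptors, SMADs, inhibitors outside the cell and target genes. Between chondrocytes and synoviocytes with resting MSC-CM 30 of 79 were called, 13 higher and 17 lower in chondrocytes (38.0%, beside 18.1% of all genes). None of the 14 SMADs and SMAD regulators was among them. Of the activation list 8 of 21 were called, among them the protease MMP9 (log2 2.72 ± 0.24, adjusted p = 3.77e-05) and the integrin subunit ITGB3 (-2.10 ± 0.22, adjusted p = 1.05e-04). Of the receptors TGFBR2 was lower (-0.50 ± 0.11, adjusted p = 0.00979) and TGFBR3, a co-receptor, higher (0.43 ± 0.12, adjusted p = 0.0358). Of 7 inhibitors 5 were called, with ASPN lower (24.4 ± 9.66 CPM in synoviocytes and 0.927 ± 0.271 CPM in chondrocytes) and FMOD higher (39.7 ± 16.2 and 325 ± 61.8 CPM), both small proteoglycans that bind TGF-β. Of 31 target genes 15 were called, 5 higher and 10 lower, ELN, the gene of elastin, being lower (log2 -5.29 ± 0.38, adjusted p = 1.07e-05). Against macrophages 68 of 79 (synoviocytes, 86.1%) and 69 of 79 (chondrocytes, 87.3%) were called, beside 71.6% and 71.5% of all genes.

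With the media no gene of the 5 lists was called in any cell type by the fit without a block. At an unadjusted p under 0.05 the synoviocytes had 17 of 77 with TLR-MSC-CM (11 higher and 6 lower, 22.1%) and 15 of 77 with STING-MSC-CM (9 higher and 6 lower, 19.5%), beside 10.0% and 7.60% of all genes. With both media ADAMTSL2, a matrix protein that binds LTBP1, was higher (0.674 ± 0.221 CPM with resting, 1.47 ± 0.0496 CPM with TLR and 1.46 ± 0.385 CPM with STING-MSC-CM), as were TGFBR3 (log2 0.39 ± 0.10 and 0.33 ± 0.10) and FMOD (0.58 ± 0.24 and 0.63 ± 0.24), and FSTL3, an activin inhibitor, was lower (-0.34 ± 0.14 and -0.37 ± 0.14). None of them passed adjustment. Without the resting library of donor ORC the counts were 6 and 3, and those over all genes fell from 1465 to 563 and from 1109 to 389. Without the activated library of that donor the counts were 3 and 2, beside 532 and 472 over all genes. Without the resting library of donor AG1 the counts were 29 and 24, beside 2270 and 1870 over all genes. In chondrocytes 0 of 77 were under 0.05 with any medium, and in macrophages 1, 3 and 7 of 73 (TLR against resting, STING against resting and STING against TLR). The chondrocyte counts were 1, 2 and 1 with the MSC donor as a block, beside 2.22%, 3.92% and 4.18% of all genes. With the MSC donor as a block, 4 of 73 listed genes were called in macrophages between STING and TLR-MSC-CM, beside 2.23% of all genes, namely TGFBR1 higher with STING-MSC-CM (log2 0.42, adjusted p = 0.0364) and PLAT (-1.75, adjusted p = 0.0179), BHLHE40 (-0.55, adjusted p = 0.0435) and ID3 (-0.63, adjusted p = 0.0473) lower. In MSC 2 of 79 were under 0.05 with the STING agonist, FBN1 (-0.997 ± 0.31, unadjusted p = 0.0114) and COL5A1 (-0.84 ± 0.37, unadjusted p = 0.0496), both lower, beside 2.10% of all genes. With the donor as a block it was 27 of 79, 11 higher and 16 lower, beside 9.48% of all genes.

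The genes whose levels ran most like LRRC32 were sought by Pearson's r of log2(CPM + 1) among 11655 genes with a mean of at least 1 CPM. Over all 45 libraries, in 2 tables, these were FBXW4 (r = 0.92), MTA2 (0.91), ZBTB7A (0.91), CARS2 (0.91) and IGFBP6 (0.90), all of which, like LRRC32, had their highest median in MSC. Ranking by Spearman's rho gave 5 other genes. Over the 27 joint cell libraries with a medium, with each cell type's mean subtracted, they were IPPK (0.88), SIPA1L3 (0.88), ST3GAL4 (0.88), MYO9B (0.86) and CYTH3 (0.86), of which Spearman's rho kept 3. In those libraries r with LRRC32 was 0.43 for TGFB1, -0.45 for THBS1 and -0.67 for TGFBI. The points share cell sources, medium donors and depth, and these values are descriptions.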

How the data were processed

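Polyadenylated RNA was sequenced from 12 MSC and 33 joint cell libraries. The deposited values are counts of reads per gene, made by the authors; the submitters' processing notes name cutadapt 1.12, STAR, HTSeq 0.11.0, DESeq2 and the horse build EquCab3.0. Counts of 1000000 or more (41 values, 2 of them THBS1 in chondrocytes with TLR-MSC-CM of donors ORC and PC) were deposited with 3 significant digits. Of the 20881 rows, 3970 carry an Ensembl ID in place of a symbol. MSC and joint cells are separate tables and were fitted separately. The members and gene lists were chosen with earlier results of these data known.

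Genes with at least 10 counts over a fit's libraries were tested with edgeR 4.0.16 (TMM, quasi-likelihood test, R 4.3.3, limma 3.58.1), without a donor term, with Benjamini-Hochberg adjustment over all genes of a comparison and a threshold of 0.05. All 8 members passed the count filter in every fit. Media were compared within a cell type, and cell types over the 9 libraries with resting MSC-CM. Totals ranged from 23525704 to 54103873 counts (median 31660884). Intervals are 95% Poisson intervals, and these and the floor of 3 counts cover counting error only. Fits were tested on simulated data. Members were named in every condition, with fold change and p where the unadjusted p was under 0.05, except LRRC32 with the media in synoviocytes and chondrocytes. A fold change or level given for another gene or comparison was chosen after its values were seen. Up to 4 genes per pathway list and comparison, those with the smallest p, qualified to be named. Genes most like LRRC32 were the 5 with the highest r.

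MSC libraries of the same donor come from the same horse. Joint cell libraries that share a name were taken to carry medium of the same MSC donor. The deviations of same-named libraries from the group means correlated in MSC (median r = 0.83), chondrocytes (0.59) and macrophages (0.30), with every pair over 0.1 in these 3, and hardly in synoviocytes (0.02) or across cell types (0.06). The donor as a block was an alternative, as were DESeq2 1.42.0, RLE size factors, filterByExpr, no filter, fitting 2 cell types alone, leaving out each library and, chosen after seeing the data, donors PC and AG1 alone. ITGAV, TAGLN, C1QA, PRG4 and PF4 were not analysed here. Values and figures were computed with Python 3.11.15, numpy 2.4.6, pandas 2.3.3, scipy 1.17.1 and matplotlib 3.10.9.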

Additional observations from a re-analysis of the deposited data

Results flagged for a closer look

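Of 72 comparisons of a change with the medium between a pair of cell types, 3 were flagged because every medium donor moved a gene one way in one cell type and the opposite way in the other. These differences were not tested. The share of all genes that meet this rule is not given here, so 3 of 72 cannot be set against a background. Relative to resting MSC-CM, TGFB2 with STING-MSC-CM moved by log2 -2.27 to -0.39 in macrophages and by 0.11 to 0.60 in synoviocytes, and the macrophage values rest on 3 to 20 counts a library. Also relative to resting MSC-CM, LRRC32 with STING-MSC-CM moved by 0.11 to 0.54 in chondrocytes and by -1.51 to -0.40 in synoviocytes. LRRC32 with STING-MSC-CM against TLR-MSC-CM moved by 0.56 to 1.14 in chondrocytes and by -0.56 to -0.24 in synoviocytes. LRRC32 was chosen for this pattern. Single values far from their group were not sought by a test, since each group holds at most 3 libraries.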

How the results depend on the processing

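The number of these genes called was 0 in all MSC and media comparisons under every alternative fit. LRRC32 carries no test with the media in synoviocytes and chondrocytes, so 7 genes were counted there. At an unadjusted p under 0.05 in the main fit, 2 of the 7 passed in synoviocytes with TLR-MSC-CM (10.0% of all genes). With STING-MSC-CM it was also 2 of the 7 (7.60% of all genes). Between chondrocytes and synoviocytes the number of the 8 genes called was 3. It was 6 with DESeq2 and 6 with only the 2 cell types fitted, both of which add LRRC32, TGFBI and THBS1. LRRC32 is there as a description only, since its resting libraries entered the pattern it was chosen for. Leaving out 1 library gave 2 to 5, with 2 without the synoviocytes given resting MSC-CM of donor ORC and 5 without the chondrocytes given resting MSC-CM of donor ORC. The difference between chondrocytes and synoviocytes in the change of LRRC32 with TLR-MSC-CM was 0.18, ran from -0.16 to 0.38 when 1 library was left out, with -0.16 without the synoviocytes given resting MSC-CM of donor ORC, and was -0.0372 with donors PC and AG1 alone. The causes were not tested. Of the fold changes of the 8 genes recomputed under the alternatives, 391 kept direction and side of the threshold, 8 passed it newly, 2 no longer passed and 2 reversed.

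With the MSC donor as a replicate block (paired by donor), the number of members called did not change in any comparison, and was again 3 between chondrocytes and synoviocytes. The block raised the genes called from 0 to 2 in MSC with the STING agonist, to 2 in chondrocytes with STING-MSC-CM, and to 80 and 336 in macrophages for STING-MSC-CM against resting MSC-CM and against TLR-MSC-CM. Without the block, DESeq2 called 5 and 33 genes in those last 2 comparisons. Depth limits TGFB2 and LTBP1 in macrophages, at 3 to 20 and 11 to 52 counts a library.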

Other observations

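Among the listed pathway genes several set the macrophages apart in kind. With resting MSC-CM, NRROS, which in myeloid cells takes the place that LRRC32 has on regulatory T cells in holding latent TGF-β, measured 208 ± 40.3 CPM (SD, n = 3) in macrophages, with at most 1 count a library in synoviocytes and 0 counts in chondrocytes. The protease MMP9 measured 22802 ± 3788 CPM in macrophages, 18.6 ± 3.21 CPM in synoviocytes and 124 ± 31.2 CPM in chondrocytes. The receptor ACVRL1 was also higher there, at 35.5 ± 7.81 CPM against 2.06 ± 0.704 and 2.82 ± 0.891 CPM. The co-receptor TGFBR3 (3.49 ± 0.658 CPM against 108 ± 4.32 and 147 ± 13.2 CPM), the signal transducer SMAD3 (7.03 ± 0.749 CPM against 63.2 ± 7.09 and 54.1 ± 5.04 CPM) and the target LOXL2 (0.798 ± 0.118 CPM against 486 ± 68.7 and 536 ± 13.3 CPM) were lower. All 6 genes had an adjusted p under 0.05 against both other types by edgeR's quasi-likelihood test.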
